A study of Mus musculus with 47 samples.

Results

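The potassium channel genes of the mouse were followed across 4 brain regions and 4 stages of the estrous cycle. The members were all protein-coding genes whose symbol starts with Kcn, 94 of the 37315 genes in the count tables, and they include pore-forming subunits and auxiliary subunits. Female C57BL/6J mice aged 90 to 92 days were used, with no treatment or genetic change named in the labels. Whole hypothalamus, hippocampus, neocortex and cerebellum were dissected, and messenger RNA of each was sequenced at 4 stages, named proestrus, estrus, metestrus and diestrus. Each combination of stage and region had 3 libraries, apart from the neocortex at estrus with 2 (the other one was not analysed here), so 47 libraries entered the comparisons. All proestrus mice were 91 days old and all estrus mice 90 days old, so age and stage cannot be told apart in that contrast. The hippocampus libraries were made with a different protocol from the other 3 regions, so region and protocol cannot be told apart in any contrast with the hippocampus.

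Potassium channels let potassium ions cross the cell membrane and so set the resting potential, end the action potential and limit repetitive firing. Voltage-gated channels open on depolarization, calcium-activated and sodium-activated channels open when those ions rise inside the cell, inward rectifiers and the Kcnk leak channels carry current near rest, and auxiliary subunits change the gating or the transport of the pore. In the brain, fast-deactivating Kv3 channels of the Kcnc genes are known for high-frequency firing, and Kir4.1, the product of Kcnj10, for potassium uptake by astrocytes.

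Depth, as the total count of a library, lay between 1826368 and 8264980 for the hypothalamus, and hippocampus libraries held 7672217 to 15680876 counts. In the cerebellum it ran from 2558644 to 7996961, and neocortex libraries held 6311867 to 10535466 counts. Levels are given as CPM, counts per 1000000 counts of the library. The region labels went with their marker genes: a list of 6 hypothalamic neuropeptide genes summed to between 437 and 834 CPM in the hypothalamus and to at most 6.06 CPM in any other library, and a list of 4 granule cell genes summed to between 2915 and 3429 CPM in the cerebellum and to at most 124 CPM elsewhere. In bulk tissue, fewer cells of a type and less RNA per cell cannot be told apart. Lars2 took 13.5% of the hypothalamus library Estrus 3 and 10.6% of Metestrus 3, where the median of that region was 4.13%.

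Of the 94 members, 82 passed the filter on low counts and were tested between regions. The 12 that did not were Kcna7, Kcna10, Kcne1, Kcne3, Kcnj1, Kcnk7, Kcnk15, Kcnk16, Kcnk18, Kcnmb3, Kcnn4 and Kcnq1, and of these Kcnk16 had 0 counts in all 47 libraries and Kcnq1, which encodes a cardiac and epithelial channel, had the most with 120 counts in all. A mean of at least 1 CPM was reached by 63 members in the cerebellum, 74 in the neocortex, 77 in the hippocampus and 78 in the hypothalamus.

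All 77 pore-forming members held at least 1 match to the codons of the selectivity filter, the stretch that lets potassium pass and holds back sodium, while no auxiliary member did. The filter region is shown for members that lead a region or differ between regions, from the coding sequence of the GENCODE M21 transcripts (GRCm38). The capitals mark the filter codons.
Kcna1: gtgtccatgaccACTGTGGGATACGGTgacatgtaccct
Kcng4: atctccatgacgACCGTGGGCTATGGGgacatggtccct
Kcnk3: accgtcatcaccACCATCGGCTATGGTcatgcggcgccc
Kcnj5: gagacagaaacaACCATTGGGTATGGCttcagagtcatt
Runs shared along the whole coding sequence included 91 bases in Kcna5 and Kcna6 and 55 in Kcna10 and Kcna3, so reads within these runs may have been split between the genes. The median longest run over the 314 pairs within subfamilies was 14 bases.

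The level of potassium channel RNA differed between regions. The 94 members summed to 6240 ± 223 CPM in the cerebellum (SD, n = 12), 5638 ± 72.2 in the neocortex (n = 11), 5208 ± 217 in the hippocampus (n = 12) and 3170 ± 397 in the hypothalamus (n = 12). In the hypothalamus the sum lay between 2294 CPM, in Estrus 3, and 3672, with a median of 3228. All hypothalamus libraries lay below the lowest library of every other region, which was 4923 CPM in the hippocampus. Per kilobase of exon, the most abundant member was Kcnj10 in the hypothalamus at 69.2 CPM per kb, and Kcnab2 in the hippocampus at 115 and in the neocortex at 75.4. Kcna1 was at 103 CPM per kb in the cerebellum. Kcnab2 encodes a beta subunit of Kv1 channels, and Kcna1 one of their pores.

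**Figure D1:**
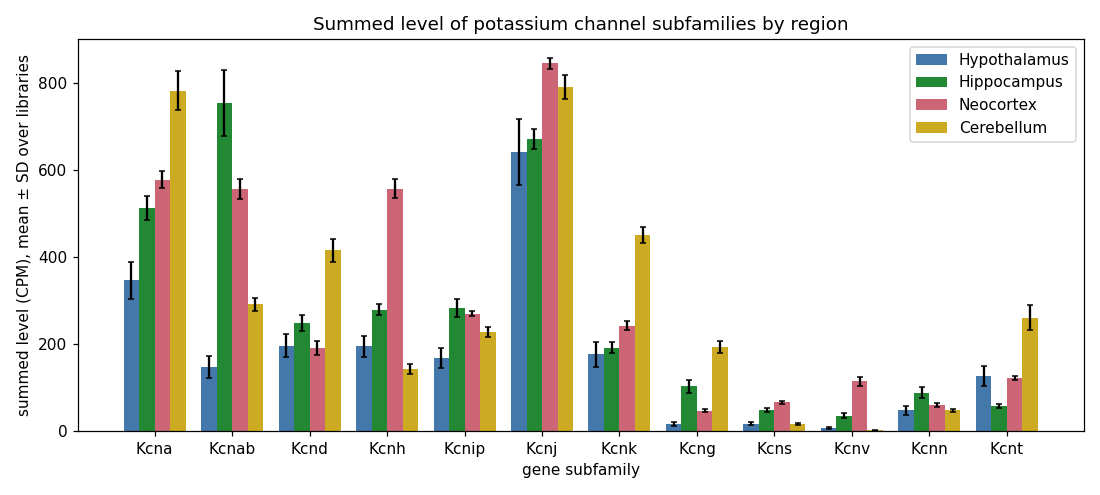
Summed level in CPM of 12 subfamilies, mean ± SD over the libraries of each region (bars from 0). The Kcnk sum was 451 CPM in the cerebellum and 176 in the hypothalamus, and the Kcnab sum was 755 CPM in the hippocampus and 147 in the hypothalamus.

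In each of the 6 pairs of regions, the share of members called was above the share of all tested genes. A gene was called when the test against a 2-fold change (edgeR glmTreat) gave an adjusted p under 0.05, and 18152 genes were tested. Between hypothalamus and hippocampus 36 of 82 members were called, beside 16.0% of all genes. Of these, 10 were higher in the hypothalamus (7.22% of all genes) and 26 lower (8.83%). Between hypothalamus and neocortex 41 were called (17.7% of all genes), 9 higher in the hypothalamus (10.8%) and 32 lower (6.89%). Between hypothalamus and cerebellum 47 were called (19.9%), 29 higher in the hypothalamus (13.4%) and 18 lower (6.56%). Hippocampus and neocortex were the pair with the fewest, 15 members (9.27%), of which 5 were higher in the hippocampus (6.85%) and 10 lower (2.42%). Hippocampus and cerebellum differed in 50 members (20.5%), 37 higher in the hippocampus (14.2%) and 13 lower (6.36%). Neocortex and cerebellum differed in 47 (17.2%), 34 higher in the neocortex (10.2%) and 13 lower (7.02%). A member that passed the filter only through the region where it is high had to differ, and 55 members passed within every region. Of those 55, 22, 25, 30, 6, 30 and 28 were called in the same order, beside 10.3%, 12.5%, 13.6%, 4.24%, 13.9% and 13.1% of the 14123 genes that did so.

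The median absolute log2 fold change of the 55 members that passed in every region was between 0.46 (hippocampus and neocortex) and 1.40 (hippocampus and cerebellum), against 0.25 to 0.43 over the 14123 genes. Region held a median 93.5% of the variance of the log2 level of these members and stage 0.395%, compared with 63.0% and 1.40% over those genes. Of the 55 members, 44 were called in at least 1 pair, beside 27.9% of the 14123 genes. Of all 82 tested, 68 were called in at least 1 pair, beside 37.8% of all tested genes, and 14 in none. Fitted within each stage alone, 37 of the 50 calls between hippocampus and cerebellum and 7 of the 15 between hippocampus and neocortex were made in all 4 stages. For the hypothalamus it was 23 of 36 against the hippocampus, 26 of 41 against the neocortex and 36 of 47 against the cerebellum. Neocortex and cerebellum gave 33 of 47. The matching share over all genes was not counted, so these numbers say nothing particular to the members.

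**Figure D2:**
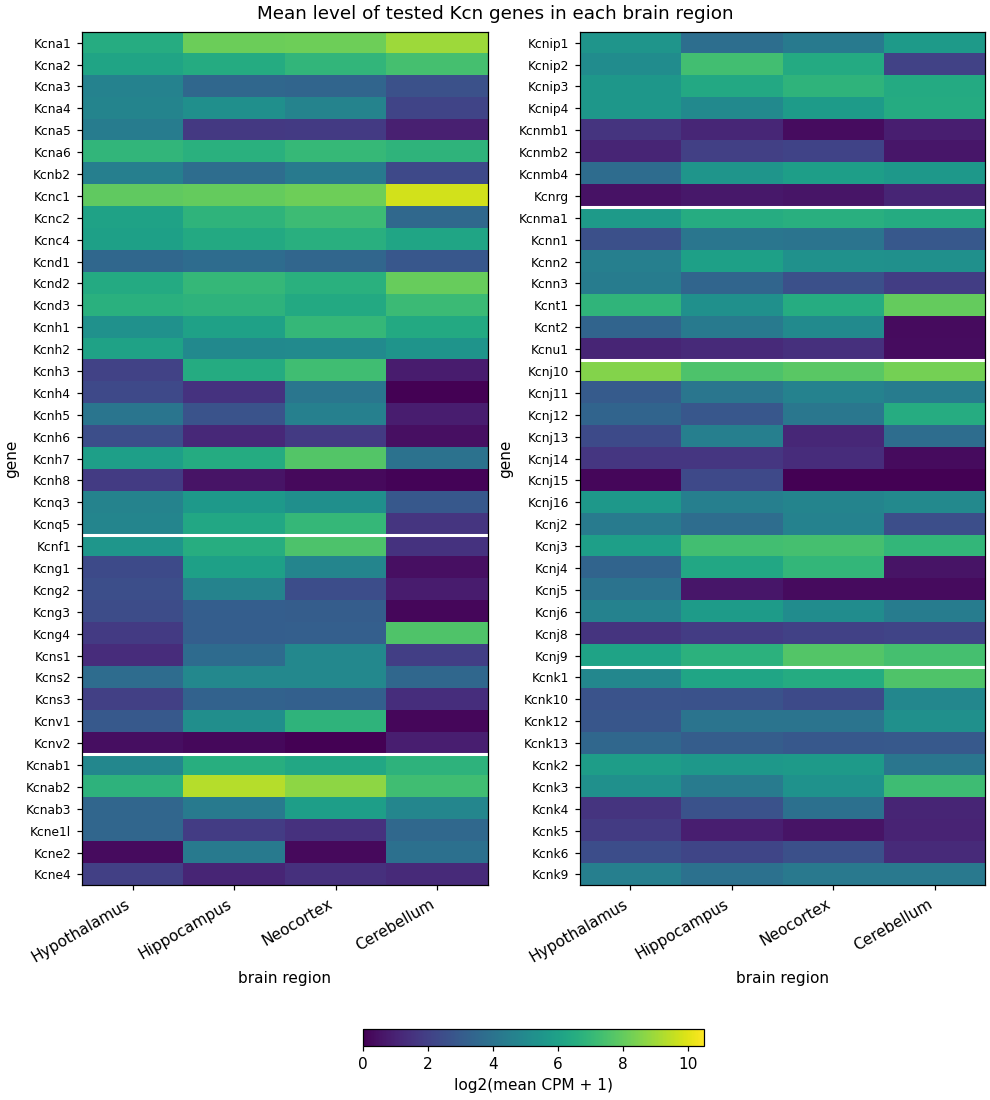
Mean level in each region of the tested members that are reported, as log2(mean CPM + 1), with genes in rows grouped by role (white lines) in the order of voltage-gated pores, silent modifiers, auxiliary subunits, calcium-activated or sodium-activated channels, inward rectifiers and leak channels. Kcng4 stands at 192 CPM in the cerebellum and has means of 2.43 to 8.10 in the other regions.

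Among the voltage-gated pore genes of the Kcnc subfamily, Kcnc1, which encodes Kv3.1, was highest in the cerebellum. It lay between 742 and 1003 CPM there, with a median of 899, and at 883 ± 77.1 CPM against means of 243 to 290 in the other regions. No library of another region exceeded 312 CPM, so no library overlapped. Its smallest difference was to the neocortex (log2 fold change -1.43, SE 0.05, adjusted p = 5.41e-11). Kcnc2 went the other way: it stood at 10.7 ± 5.04 CPM in the cerebellum and 64.6 to 144 elsewhere. Kcnc4 was called in no pair, with means between 60.8 and 98.4 CPM.

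Other voltage-gated pores ranked the regions differently. Kcna1, which encodes Kv1.1, was lowest in the hypothalamus at 88.8 ± 12.3 CPM and reached 494 ± 30.3 in the cerebellum, with 292 in the neocortex and 278 in the hippocampus. The hypothalamus libraries, at most 111 CPM, lay below all others. Kcna5, which encodes Kv1.5, was highest in the hypothalamus at 20.0 ± 2.53 CPM against means of 0.890 to 2.47 elsewhere, and its smallest difference was to the neocortex (log2 fold change 2.88, SE 0.11, adjusted p = 1.84e-21). Kcna6, the other member with the long shared run, was called in no pair, with means of 99.2 to 130 CPM, and a gene on the opposite strand overlaps 39.6% of its exon length. Kcnh8, a member of the ether-a-go-go-like family, was also highest in the hypothalamus, but at only 2.52 ± 0.895 CPM. Kcnh8 passed the filter on low counts only within the hypothalamus, so it had to differ.

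Several pore genes were lowest in the cerebellum. Kcnq5 (Kv7.5) was at 2.07 ± 0.986 CPM there and at 26.8, 78.5 and 126 CPM in the hypothalamus, hippocampus and neocortex. Kcnh3 was at 153 ± 10.9 CPM in the neocortex and 88.1 ± 15.9 in the hippocampus, and at 3.17 and 0.739 CPM in the hypothalamus and cerebellum. Kcnh4 reached 16.3 ± 1.43 CPM in the neocortex and had 2 counts in all cerebellum libraries together, 10 of which were at 0.

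Of the Kcnd genes, whose Kv4 pores carry the transient A-type current, 1 of 3 was called in any pair of regions. All 3 passed the filter in every region, where 27.9% of the 14123 genes were called, so nothing is read from this count. Kcnd2 (Kv4.2) was at 268 ± 22.2 CPM in the cerebellum, 99.2 ± 8.96 in the neocortex, 128 ± 14.8 in the hippocampus and 84.8 ± 9.69 in the hypothalamus, and was called between the cerebellum and both neocortex and hypothalamus. Kcnd1 and Kcnd3 were called in no pair, with means of 6.11 to 12.1 and 82.1 to 142 CPM. Kcnh7, an ether-a-go-go-related gene, was highest in the neocortex at 205 ± 20.9 CPM and lowest in the cerebellum at 14.5 ± 3.62, with 87.5 in the hippocampus. Its difference between hippocampus and neocortex (log2 fold change -1.32, edgeR) was lost with DESeq2 (adjusted p = 0.0532). Kcnq3, which encodes a subunit of M-current channels, was lowest in the cerebellum at 6.46 ± 1.27 CPM against 24.7 to 50.4 elsewhere. Kcna4 (Kv1.4) was also lowest there, at 3.42 ± 1.20 CPM against 25.1 to 36.9.

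Of the 55 members that passed the filter in every region, 11 were called lowest in the cerebellum against each of the 3 other regions and 7 highest, beside 3.03% and 2.38% of the 14123 genes. In the same sense 8 were lowest and 0 highest in the hypothalamus (1.19% and 1.64%), 1 was lowest and 0 highest in the hippocampus (0.142% and 0.545%), and 0 were lowest and 3 highest in the neocortex (0.340% and 0.659%). Over all 82 members tested, including those that passed only through a region where they are high, the counts lowest and highest were 25 and 7 in the cerebellum (4.88% and 3.12% of all tested genes), 8 and 3 in the hypothalamus (1.24% and 3.82%), 1 and 2 in the hippocampus (0.132% and 2.74%), and 0 and 7 in the neocortex (0.826% and 1.07%).

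The modifier genes, which form no channel of their own but join Kv2 pores, included the members with the widest differences. Kcng4 (Kv6.4) was at 192 ± 13.6 CPM in the cerebellum, lowest 177 and highest 215, against 2.43 to 8.10 in the other regions. No other library exceeded 10.1 CPM. The smallest difference was to the neocortex, with a log2 fold change of -4.40 (SE 0.08, adjusted p = 2.67e-39). Of the 10 modifier genes tested, 4 passed the filter in every region, namely Kcnf1, Kcng4, Kcns2 and Kcns3. Of these, 3 were higher and 1 lower in the hippocampus than in the cerebellum, beside 8.32% and 5.53% of the 14123 genes, and 3 and 1 in the neocortex (7.68% and 5.45%). Kcng1 (Kv6.1) was at 61.9 ± 12.0 CPM in the hippocampus and 0.348 ± 0.276 in the cerebellum. Kcng2 was highest in the hippocampus, with 25.3 ± 5.14 CPM against 4.72 and 4.65 in the hypothalamus and neocortex and 0.765 in the cerebellum. Kcnv1 (Kv8.1) and Kcnf1 (Kv5.1) were highest in the neocortex, at 114 ± 9.83 and 190 ± 13.7 CPM, and at 0.152 and 1.94 CPM in the cerebellum, where Kcnv1 had 9 counts in all. Kcns1 (Kv9.1) was highest in the neocortex too, at 28.7 ± 2.89 CPM, with 11.6 ± 1.31 in the hippocampus.

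**Figure D3:**
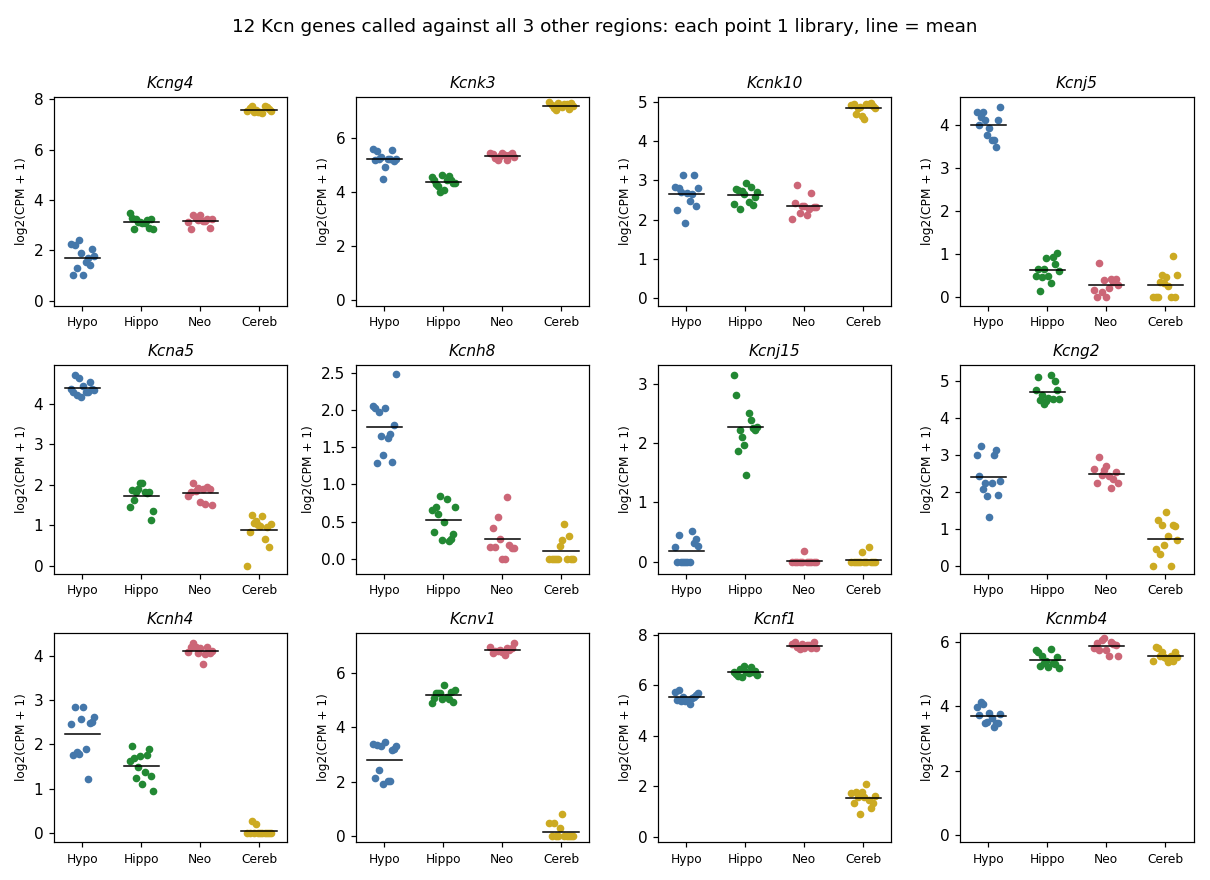
Level of 12 members called highest or lowest in 1 region against all 3 others, as log2(CPM + 1), with 1 point per library and a line at the mean of the region. The cerebellum points of Kcng4 and the hypothalamus points of Kcnj5 lie clear of every other library.

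The RefSeq promoter windows of 4 members that were highest in a single region are shown, since each gene was called higher in 1 region than in the 3 others. Kcnj5 and Kcnj15 passed the filter on low counts only within that region, so for them the call was fixed in advance. The windows run from 250 bases before to 50 after the gene start, on GRCm38.p6, and the capitals mark the motif matches found on either strand: CCAAT in Kcng4, GGGCGG in Kcnj5 and Kcnh4, and TATAAA, read on the opposite strand, in Kcnj15.
Kcng4 promoter, chr8:119635631-119635930, strand -: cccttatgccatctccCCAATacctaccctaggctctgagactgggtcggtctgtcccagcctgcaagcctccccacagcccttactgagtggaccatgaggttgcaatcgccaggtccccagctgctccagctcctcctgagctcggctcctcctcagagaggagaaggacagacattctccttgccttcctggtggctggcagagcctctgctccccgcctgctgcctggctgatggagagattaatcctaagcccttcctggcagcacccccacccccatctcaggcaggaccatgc
Kcnj5 promoter, chr9:32344295-32344594, strand -: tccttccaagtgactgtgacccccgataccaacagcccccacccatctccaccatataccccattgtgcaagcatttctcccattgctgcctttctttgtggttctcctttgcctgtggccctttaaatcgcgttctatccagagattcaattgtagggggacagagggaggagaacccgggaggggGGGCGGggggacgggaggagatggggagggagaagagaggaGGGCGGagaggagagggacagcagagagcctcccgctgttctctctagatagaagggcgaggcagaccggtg
Kcnj15 promoter, chr16:95257308-95257607, strand +: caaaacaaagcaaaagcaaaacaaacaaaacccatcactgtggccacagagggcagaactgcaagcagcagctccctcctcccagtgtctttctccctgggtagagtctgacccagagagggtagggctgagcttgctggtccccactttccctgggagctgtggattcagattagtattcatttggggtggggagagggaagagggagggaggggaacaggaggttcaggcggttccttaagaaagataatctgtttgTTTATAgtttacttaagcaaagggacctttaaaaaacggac
Kcnh4 promoter, chr11:100759729-100760028, strand -: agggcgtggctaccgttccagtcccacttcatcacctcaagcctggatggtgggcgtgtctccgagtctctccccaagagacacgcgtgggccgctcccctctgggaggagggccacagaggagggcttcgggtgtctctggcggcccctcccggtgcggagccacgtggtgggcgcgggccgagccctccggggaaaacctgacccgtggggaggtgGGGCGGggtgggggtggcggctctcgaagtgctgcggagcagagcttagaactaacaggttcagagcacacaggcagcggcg
Of the 94 member windows, which cover 69 members, 47.9% held GGGCGG, 30.9% CCAAT and 5.32% TATAAA, against 35.7%, 37.4% and 13.6% of all 32851 windows, counting either strand. The palindromic estrogen response element was found in 0 member windows and in 0.0700% of all windows. Its arm AGGTCA was found in 6.38% and 16.3%, and TGACGTCA, the cyclic AMP response element, in 0 member windows and 1.79% of all. These are letters within the window and say nothing of binding.

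Among inward rectifiers, Kcnj5 (Kir3.4, a subunit of G-protein-gated channels) was highest in the hypothalamus, with a lowest library of 10.2, a median of 15.6 and a highest of 20.5 CPM. No other library exceeded 1.04 CPM. The smallest difference was to the hippocampus, a log2 fold change of 4.71 (SE 0.21). Kcnj5 passed the low-count filter only within the hypothalamus, so it had to differ, and its call is no support. Of the other G-protein-gated subunits, Kcnj3 and Kcnj9 were lower in the hypothalamus, at 60.6 and 66.7 CPM, than in the neocortex, at 168 and 204 CPM. Kcnj6 was at 24.4 and 33.8 CPM in these regions, which was not called. A gene on the opposite strand overlaps 31.1% of the exon length of Kcnj3. Kcnj12 (Kir2.2) was highest in the cerebellum at 90.3 ± 9.76 CPM against 6.26 to 16.7 elsewhere, while Kcnj4 (Kir2.3) was lowest there at 0.454 CPM. Kcnj4 lay between 103 and 135 CPM in the neocortex and between 54.1 and 99.3 in the hippocampus, a difference that was not called. Kcnj11 (Kir6.2, the pore of ATP-sensitive channels) was lowest in the hypothalamus, with libraries from 4.99 to 9.00 CPM against region means of 16.4 to 23.9. Kcnj15 (Kir4.2) was highest in the hippocampus at 4.03 ± 1.61 CPM, lowest library 1.76, with 8 counts in all hypothalamus libraries and 1 in all neocortex libraries. Kcnj15 passed the filter only within the hippocampus, so it had to differ.

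Among the genes known from glia, vessels and microglia, Kcnj10, Kcnj16, Kcnj8 and Kcnk13 were called in no pair of regions. Of all tested genes, 37.8% were called in at least 1 pair. The test was against a 2-fold change, so no call does not mean no difference. Kcnj10 had a log2 fold change of 0.99 (SE 0.05), hypothalamus minus hippocampus. Kcnj10 was at 374 ± 42.7 CPM in the hypothalamus, 317 ± 17.9 in the cerebellum, 186 ± 16.7 in the hippocampus and 221 ± 13.1 in the neocortex. Kcnj16, its partner subunit, was at 47.9 ± 10.9, 29.4 ± 3.11, 21.9 ± 3.37 and 25.8 ± 2.03 CPM in the same order. The 6-gene astrocyte list summed to a median of 2048 CPM in the cerebellum and 1364 in the hypothalamus, so per 1000 CPM of that list the median of Kcnj10 was 286 in the hypothalamus, 243 in the neocortex, 160 in the hippocampus and 153 in the cerebellum. Kcnj8 (Kir6.1, known from pericytes) and Kcnk13 (THIK-1, known from microglia) had means of at most 3.46 and 10.3 CPM.

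Kcne2 and Kcnj13 were called higher in the hippocampus than in the neocortex and hypothalamus, and their levels are given beside a choroid plexus marker list. Kcne2 passed the low-count filter only within the hippocampus and cerebellum, so its calls against the neocortex and hypothalamus were fixed in advance. Both were also higher in the cerebellum than in the neocortex, and Kcne2 than in the hypothalamus, where the Kcnj13 difference was not called. In the hippocampus, Kcne2, which encodes an auxiliary subunit, ran from 1.22 CPM in Proestrus 2 to 33.8 in Diestrus 2, with a median of 17.8. The summed level of 6 choroid plexus genes was 152 CPM in the same low library and 3255 in the same high one. In the cerebellum Kcne2 was lowest at 0.195 CPM in Metestrus 3, where the list stood at 33.0 CPM, and in the hypothalamus and neocortex it was at most 0.729 CPM, where the list was at most 59.3 CPM. Per 1000 CPM of the list, Kcne2 was between 7.99 and 11.1 CPM in the hippocampus and between 5.92 and 15.3 in the cerebellum. Kcnj13 (Kir7.1) ran from 1.78 to 42.2 CPM in the hippocampus, and 49.1% of its exon length overlaps Gigyf2 on the opposite strand. Per 1000 CPM of the list, the median of Kcnj13 was 11.8 CPM in the hippocampus and 11.6 in the cerebellum. It was 93.0 in the hypothalamus and 62.5 in the neocortex, where the list summed to at most 59.3 CPM. The Kcne2 medians were 9.54, 11.9, 4.99 and 6.37 in the same order of regions. Ratios to a list sum that low are not compared with those of the hippocampus and cerebellum. Leaving out each stage and number in turn left the Kcne2 log2 fold change, hippocampus minus neocortex, between 6.18 and 6.87. This range is no support for that call, which was fixed in advance. The part of the choroid plexus in these results was not tested.

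**Figure D4:**
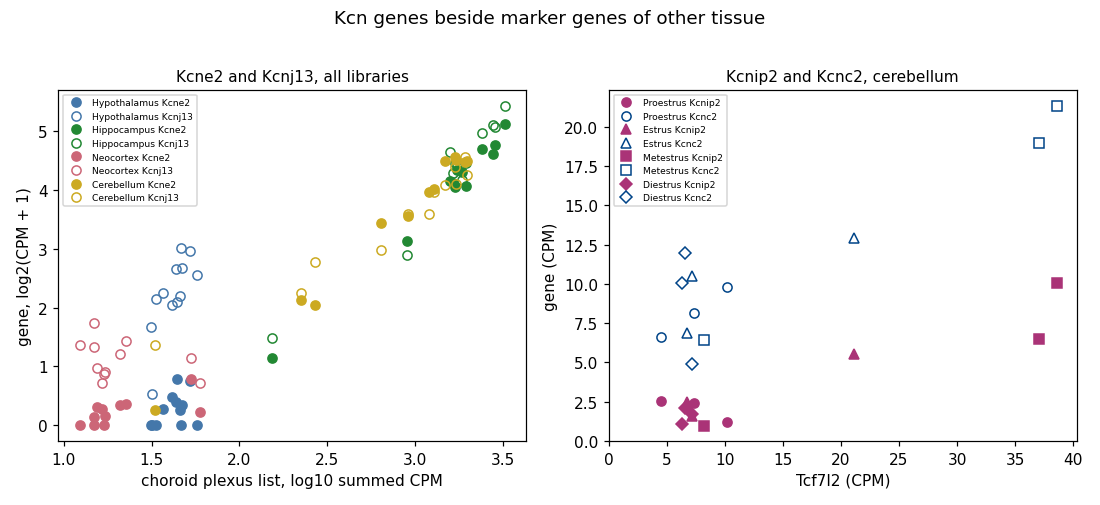
Left: Kcne2 (filled) and Kcnj13 (open) in all 47 libraries as log2(CPM + 1) against the log10 summed CPM of 6 choroid plexus genes. Right: Kcnip2 (filled) and Kcnc2 (open) in CPM against Tcf7l2 in the 12 cerebellum libraries, with a symbol for each stage. The Metestrus 1 and 2 libraries hold the highest Tcf7l2, at 37.0 and 38.6 CPM.

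Of the 10 Kcnk genes tested, whose channels carry the leak current, 7 passed the filter in every region. Of these, 1 was higher and 4 lower in the hippocampus than in the cerebellum (8.32% and 5.53% of the 14123 genes), 1 and 4 in the hypothalamus (7.77% and 5.80%), and 1 and 2 in the neocortex (7.68% and 5.45%). Kcnk3 (TASK-1) and Kcnk10 (TREK-2) were highest in the cerebellum. Kcnk3 lay between 132 and 164 CPM there, and no other library exceeded 47.4. Kcnk10 was at 27.8 ± 2.53 CPM, its lowest cerebellum library held 22.5, and no other library exceeded 7.78. Kcnk1 (TWIK-1) was at 193 ± 9.60 CPM in the cerebellum and 87.0 ± 3.89 in the neocortex, a log2 fold change of -0.98 that was not called, and was lowest in the hypothalamus at 28.3 ± 6.64. Kcnk12 was lowest in the hypothalamus too, at 6.06 ± 1.40 CPM, but its difference from the hippocampus was lost with DESeq2 (adjusted p = 0.106). Kcnk2 (TREK-1) was lowest in the cerebellum, at 16.3 CPM against 48.1 to 56.9 elsewhere, and a gene on the opposite strand overlaps 12.2% of its exon length. Kcnk4 (TRAAK) was highest in the neocortex, at 13.7 ± 1.49 CPM against 1.11 to 5.25, and Catsperz on the same strand overlaps 13.15% of its exon length.

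Of the genes opened by intracellular ions, Kcnt1 (Slack, sodium-activated) was highest in the cerebellum at 261 ± 29.4 CPM and lowest in the hippocampus at 38.0 ± 6.08, while its relative Kcnt2 was at 0.244 CPM in the cerebellum and 31.8 in the neocortex. Kcnma1, the large-conductance calcium-activated pore, was called in no pair, with means of 51.7 to 97.2 CPM. Its auxiliary gene Kcnmb4 was lowest in the hypothalamus at 12.2 ± 2.41 CPM against 43.1 to 57.5 elsewhere, and opposite-strand genes overlap 31.5% of its exon length. The small-conductance calcium-activated genes ranked the regions unlike each other. Kcnn1 was at 16.4 and 15.6 CPM in hippocampus and neocortex and 4.94 and 6.41 in hypothalamus and cerebellum, all 4 differences between these being called. Kcnn3 was at 20.1 ± 6.07 CPM in the hypothalamus and 2.72 ± 1.03 in the cerebellum (called), and Kcnn2 at 61.8 ± 9.87 in the hippocampus and 21.8 ± 4.05 in the hypothalamus (called).

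Among the auxiliary subunits, Kcnip2, which assembles with Kv4 pores, was at 159 ± 19.9 CPM in the hippocampus and 3.17 ± 2.77 in the cerebellum. Kcnip1 was at 52.5 ± 2.83 CPM in the cerebellum and 12.8 ± 1.47 in the hippocampus, a difference that was called in the other direction. Kcnab2 was at 641 ± 74.1 CPM in the hippocampus, 421 ± 22.1 in the neocortex, 156 ± 13.6 in the cerebellum and 108 ± 19.3 in the hypothalamus. Kcnab1 was lowest in the hypothalamus, at 28.3 ± 6.27 CPM. Kcnab3 was highest in the neocortex at 58.1 ± 5.80 CPM. Its difference from the cerebellum was close to the threshold (log2 fold change 1.23, SE 0.12, adjusted p = 0.0431) and was lost with RLE size factors (adjusted p = 0.0506), library totals (0.618), a mean CPM of at least 1 (0.0851) and DESeq2 (0.497).

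Of 26 related genes outside the Kcn symbols (HCN pores, regulators, sodium pumps and cotransporters), 25 were tested and 23 passed the filter in every region. Of the 23, the counts called higher and lower than in the cerebellum were 4 and 3 in the hypothalamus (7.77% and 5.80% of the 14123 genes), 4 and 3 in the hippocampus (8.32% and 5.53%), and 1 and 2 in the neocortex (7.68% and 5.45%). They were 2 and 4 in the hypothalamus against the hippocampus (4.39% and 5.94%), 2 and 3 in the hypothalamus against the neocortex (6.12% and 6.37%), and 0 and 2 in the hippocampus against the neocortex (2.45% and 1.79%). Nothing is read from counts this small. Kctd16, an auxiliary subunit of GABA-B receptors, was at 0.839 CPM in the cerebellum and 10.7 to 17.8 elsewhere, and Hcn4, a pacemaker channel, was highest in the hypothalamus at 13.6 ± 3.61 CPM against 1.81 to 4.85 elsewhere. Between stages 0 of these genes were called (edgeR), with 1 in the neocortex, Hcn4, and 1 in the cerebellum, Hcn3, at an unadjusted p under 0.05.

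Across the estrous cycle no member was called in any region, by the F-test over 4 stages or by the 6 pairwise contrasts (edgeR, adjusted p under 0.05), where 0 of all genes were called as well. DESeq2 called 0 members too, and over all genes 3 in the hippocampus and 1 in the neocortex by the test over stages. The tests covered 74 members in the hypothalamus, 78 hippocampal members, 74 in the neocortex and 58 in the cerebellum. At an unadjusted p under 0.05 the F-test held 0, 1, 5 and 2 of them in that order, beside 1.54%, 1.47%, 5.61% and 1.72% of all genes. Pairwise results at an unadjusted p under 0.05 numbered 8 of 444 (2.44% over all genes), 8 of 468 (1.99%), 24 of 444 (5.71%) and 16 of 348 (2.32%). The 95% intervals of all 6 contrasts (limma voom) lay within a 2-fold change for 54 of 74 members in the hypothalamus (76.0% of all genes), 66 of 78 in the hippocampus (78.4%), 70 of 74 in the neocortex (83.4%) and 45 of 58 in the cerebellum (84.2%). A smaller change in those members, and any change in the others, is not shown to be absent. In the interaction of stage and region, 0 of 82 members and 0 of 18152 genes were called (edgeR). Without adjustment, 1 member, Kcnu1, and 1.52% of all genes passed 0.05.

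**Figure D5:**
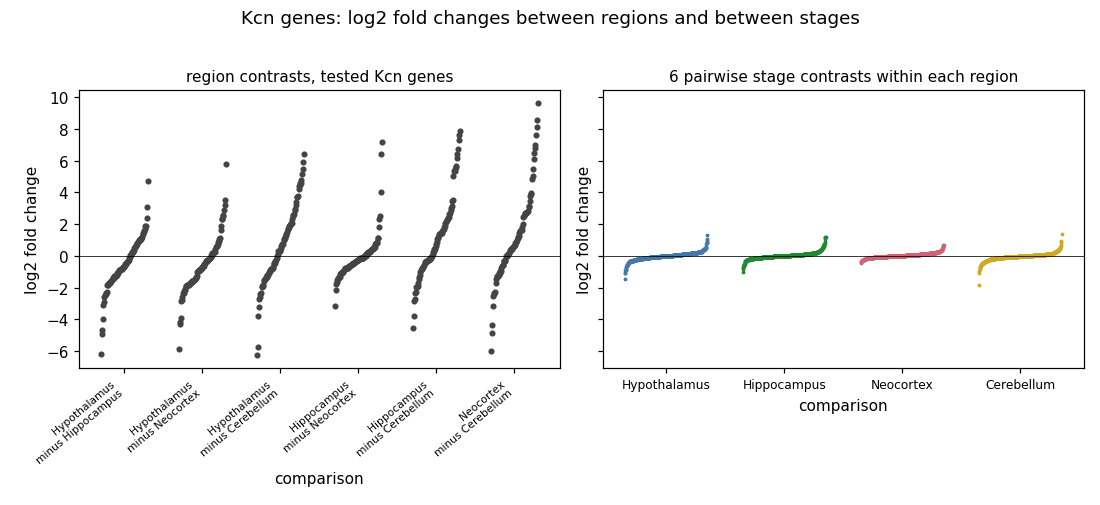
Log2 fold changes of members between regions (left, 82 members in each of 6 pairs) and between stages within each region (right, all 6 pairwise contrasts), on 1 scale. The stage changes lie between -1.84 and 1.40, both of Kcnip2 in the cerebellum, and the region changes between -6.27 (Kcng4) and 9.67 (Kcnv1, against a region with 9 counts).

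The members with the smallest stage p within each region were these, and the regions are not ranked against each other. In the neocortex, Kcnk13 was at 4.84, 4.91 and 4.93 CPM at proestrus, 5.98 and 6.19 at estrus, 8.69, 6.50 and 6.84 at metestrus, and 7.76, 6.26 and 8.22 at diestrus. Each metestrus and diestrus value exceeded every proestrus value, and the adjusted p was 0.775 (edgeR). Kcnab3 (adjusted p = 0.775) and Kcns3 (adjusted p = 0.861) followed in the neocortex. In the hypothalamus, Kcna2, which encodes Kv1.2, was at 87.0, 65.1 and 84.5 CPM at proestrus and 59.8, 59.3 and 44.4 at estrus. These groups did not overlap, and Kcna2 was at 60.6, 61.4 and 67.5 at metestrus and 78.3, 87.3 and 81.3 at diestrus. Its unadjusted p was 0.085 and its adjusted p 0.99998 (edgeR F-test). The 44.4 CPM came from Estrus 3, the shallowest hypothalamus library, with 13.5% Lars2 and the lowest member sum (2294 CPM). Kcnd3 and Kcnj9 came next in the hypothalamus. Listed for the other regions are Kcnk9, Kcnmb1 and Kcne4 in the hippocampus, and Kcnh1 and Kcnip2 in the cerebellum. The adjusted p was 0.99998, 0.99998 and 0.999905 in the hypothalamus, hippocampus and cerebellum (edgeR).

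Kcnip2 and Kcnc2 in the cerebellum differed between libraries of 1 stage. Kcnip2 was at 6.46 and 10.1 CPM in Metestrus 1 and 2 and 0.975 in Metestrus 3, 1.17, 2.53 and 2.38 at proestrus, 1.60, 5.51 and 2.50 at estrus, and 2.12, 1.70 and 1.04 at diestrus. Kcnc2 was at 19.0, 21.3 and 6.43 CPM in the same metestrus libraries. With no filter on low counts the cerebellum stage test called these 2 members, Kcnip2 (adjusted p = 3.33e-04, edgeR) and Kcnc2 (adjusted p = 0.00135, edgeR). Each was also called in 2 pairwise contrasts with metestrus. The share of all genes called with no filter is not given here, so these calls say nothing particular to the members. Tcf7l2, a transcription factor of the thalamus and midbrain, stood at 37.0, 38.6 and 8.19 CPM in those libraries and at 21.2 CPM in Estrus 2, the highest Kcnip2 outside metestrus, and at 4.47 to 10.2 CPM in the others. It was picked after its values were seen. The 4-gene thalamic list summed to 481, 496 and 486 CPM at metestrus, within a range of 432 to 666 over the cerebellum, the highest in Proestrus 1. The part of Tcf7l2-expressing cells in these values was not tested.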

How the data were processed

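Messenger RNA of 4 regions was sequenced, and the authors deposited raw counts per Ensembl gene, 1 table per region. Per the submitters' processing notes, the tools were Trimmomatic 0.32, TopHat2 2.0.8, SAMtools, Cufflinks 2.1.1 and DESeq 1.12.1 (builds GRCm38 and mm10). Which program counted reads, its strand setting and its annotation were not given in the sources used here. Symbols, gene types and exon lengths came from GENCODE M21 (35449 of 37315 genes matched), promoter windows from RefSeq (GRCm38.p6). All value columns were used (0 left out), and 0 pairs of libraries were identical.

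The whole table was fitted with edgeR 4.0.16 (R 4.3.3), with TMM factors and filterByExpr (minimum count 10, minimum total 15). Regions were compared by glmTreat against a log2 fold change of 1 with stage as covariate. Stages were compared within a region by quasi-likelihood F-tests and 6 pairwise contrasts, and the interaction was fitted over 47 libraries. Benjamini-Hochberg adjustment ran over every gene tested, and the threshold was 0.05. Fitted folds against regions with few counts depend on the prior count. Intervals came from limma 3.58.1 (voom), and SE from the edgeR fit. The scripts were tested on simulated data. The series' design states 3 biological replicates, and the labels do not say which libraries share an animal. Same-numbered libraries of 1 stage correlated between regions with a median r of 0.041 (14 of 69 pairs over 0.1). For different numbers the median r was -0.017 (17 of 138 pairs over 0.1). These values do not settle whether animals were shared. Libraries were treated as unpaired, with a replicate block as an alternative.

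Any member could be named, and results of a few members are not reported here. Described more fully were members called highest or lowest in a region, those with the largest folds per pair, those with the highest CPM per kb, those with the smallest stage or interaction p, and a set known from glia, vessels, choroid plexus or microglia (Kcnj10, Kcnj16, Kcnj8, Kcnj13, Kcne2, Kcnk13). Members and lists were chosen with earlier results of these data known. Alternatives were DESeq2 1.42.0, RLE factors, library totals, other low-count filters, no fold threshold, single stages, a replicate block and leaving out libraries.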

Additional observations from a re-analysis of the deposited data

How the results depend on the processing

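Without the fold threshold, the members called numbered 74 (hypothalamus and hippocampus), 71 (hypothalamus and neocortex), 81 (hypothalamus and cerebellum), 63 (hippocampus and neocortex), 76 (hippocampus and cerebellum) and 75 (neocortex and cerebellum), beside 64.0% to 76.0% of all genes. Counting only members that passed the filter in every region, an alternative chosen after seeing the data, gave 22, 25, 30, 6, 30 and 28 in that order, since fewer members were counted. In the same way it gave 44 members called in at least 1 pair, 11 lowest in the cerebellum, and 0, 0 and 3 highest in the hypothalamus, hippocampus and neocortex. Within metestrus alone, 8 members differed between hippocampus and neocortex, with fewer samples. With no filter on low counts, 2 members and 4 pairwise results were called between stages in the cerebellum, and the cause was not tested. The share of all genes called between stages in that fit is not given here. Leaving out each stage and number in turn from all regions gave 33 to 37, 40 to 43, 46 to 47, 15 to 16, 49 to 51 and 46 to 47 members in the order above. Leaving out each library of a region in turn left the stage tests at 0. With the replicate block the counts were 35, 41, 47, 15, 50 and 47, and 0 for the stage tests. The replicate numbers are not stated to pair the samples. For the counts within metestrus, with libraries left out and with the block, the shares over all genes are not given here. Those counts therefore say nothing particular to the members. Of 418 alternative values for 30 results of single members, 391 kept their direction and call, 27 lost the call and 0 reversed. These results were picked from the same data as the largest calls of each region and direction. They include Kcnj5, Kcnj15 and Kcnh8, whose calls were fixed in advance, so the tally is no support for the calls. Scaling by library totals moved the median log2 fold change of all genes to 0.15 (hypothalamus minus neocortex), 0.12 (hippocampus minus neocortex) and -0.18 (neocortex minus cerebellum). In the shallowest hypothalamus and cerebellum libraries, 3 counts are 1.64 and 1.17 CPM, which limits members of low level.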
